A study of Mus musculus with 4 samples.

Results

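The CTLH complex, named GID in yeast, is a ubiquitin ligase of many subunits, and its mRNAs were followed through a precipitation of RNA with the RNA-binding protein Cpeb4. The 10 genes described here are Gid4, Armc8, Gid8, Ranbp9, Ranbp10, Maea, Rmnd5a, Rmnd5b, Wdr26 and Ypel5. They were taken by gene symbol, and all 10 were found among 23185 probe sets that carry 1 symbol. The set was proposed with earlier results of these arrays known, above all the large difference of Gid4 between the Cpeb4 and the IgG precipitate. The values of the 10 genes are therefore given as a description, with no test.

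RNA came from Ter119+ erythroblasts, immature red blood cells, which were isolated with magnetic beads from the livers of E14.5 mouse embryos. One group was the Cpeb4 immunoprecipitate (IP), made from 2 biological replicates with an antibody against Cpeb4 and a commercial kit. The controls were 1 rabbit IgG precipitate and 1 total input RNA, which saw no antibody. No genotype, strain or drug treatment was named, and it was not stated whether the control RNAs came from the same cells as either IP replicate. Each RNA was measured on 1 Affymetrix array, and the comparisons address which mRNAs came down with Cpeb4. Single control arrays leave every difference without a replicate check on the control side.

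As background, the CTLH complex attaches ubiquitin to proteins through a pair of RING subunits, Maea and Rmnd5a, which are held in a ring by scaffold subunits. Substrates are brought in by exchangeable receptors, of which Gid4 binds proteins with certain N-terminal residues. In human erythroid cells the complex works with the conjugating enzyme UBE2H and changes its composition as the cells mature, and Maea was first described as a protein that attaches erythroblasts to macrophages. Cpeb4 belongs to a family that binds U-rich elements in the untranslated region ahead of the poly(A) tail. The family controls poly(A) tail length and translation.

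All values are deposited log2 expression values, where a difference of 1 is 2-fold. A gene is compared with itself between arrays, and levels of different genes are not set against each other, because probes differ. Values were spread less widely on the IgG array than on the others, with an SD over all probe sets of 1.74 against 2.05 to 2.13. The IP replicates had exactly equal values (within 1e-09) for 21.8% of the 13911 tested genes, and the median gap between replicates was 0.08. As a check of the labelled cell type, 8 erythroid markers were read. Over the 4 arrays Slc4a1, the anion exchanger of the red cell membrane, ranged from 11.94 to 12.20, Hbb-b1, a beta globin, from 11.37 to 11.74, and Alas2, the first enzyme of erythroid haem synthesis, from 11.42 to 11.56. Of the 8, Klf1, Gata1 and Epb42 were at least 2-fold below input in both IP replicates. Their IP minus input differences were -1.71, -1.40 and -1.23, and the median of the erythroid list was -0.39. Markers of other cells differed between the arrays too. The log2 of the summed level of 7 megakaryocyte markers was 10.05 in input, 11.05 in IgG, and 12.18 and 12.24 in the IP replicates. For 9 neutrophil markers it was 9.61 in input, 10.86 in IgG and 11.45 in both IP replicates, and for 9 hepatocyte markers 7.27, 8.14, 9.18 and 9.39. Macrophage markers (10 genes, 7.71 to 8.97), progenitor markers (5 genes, 8.18 to 9.25) and endothelial markers (7 genes, 6.86 to 7.83) were lowest in input too. These sums follow their highest genes: of the hepatocyte markers 3 (Alb, Afp and Trf) were at least 2-fold above input in both IP replicates, and of the endothelial markers 1 (Pecam1), with list medians of 0.70 and 0.12 in IP minus input. The same count was 5 for megakaryocyte, 5 for neutrophil, 2 for macrophage and 3 for progenitor markers. Fibroblast markers (6 genes, 6.66 to 6.96) and lymphoid markers (4 genes, 5.40 to 5.93) were highest in IgG, and erythroid markers went from 13.70 in IgG to 14.05 in input. The arrays carry no detection calls and no true zero. Input and precipitates also differ in which RNA was precipitated. In such bulk RNA this, fewer cells of a type and less RNA per cell cannot be told apart.

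Gid4, the substrate receptor, stood out from every other subunit. Its log2 value was 8.36 in input, 5.36 in IgG, 9.35 in IP replicate 1 and 9.42 in IP replicate 2. The IP replicates were thus highest, input was between, and the IgG array was far below both, with no overlap. The IP mean was 9.39 ± 0.05 (SD, n = 2), which is 16.3-fold over IgG and 2.04-fold over input. The IP replicates differed from each other by 0.08, against differences of 4.02 from IgG and 1.03 from input. Only 7 of the 13911 tested genes had a larger IP minus IgG difference, while 618 had a larger IP minus input difference. Gid4 was 7.99-fold lower in IgG than in input, and 93 tested genes had a lower IgG minus input difference. With no detection calls, it is not known whether the IgG value of Gid4 stood above the background of its own probes.

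Armc8, the subunit that links Gid4 to the ring, did not share that profile. Its value was 6.73 in input, 5.49 in IgG and 6.23 in both IP replicates, which were tied. Input was highest and IgG lowest, so Armc8 was 1.67-fold higher in the IP than in IgG but 1.42-fold lower than in input. Receptor and linker therefore lay on the same side of IgG and on opposite sides of input.

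**Figure D1:**
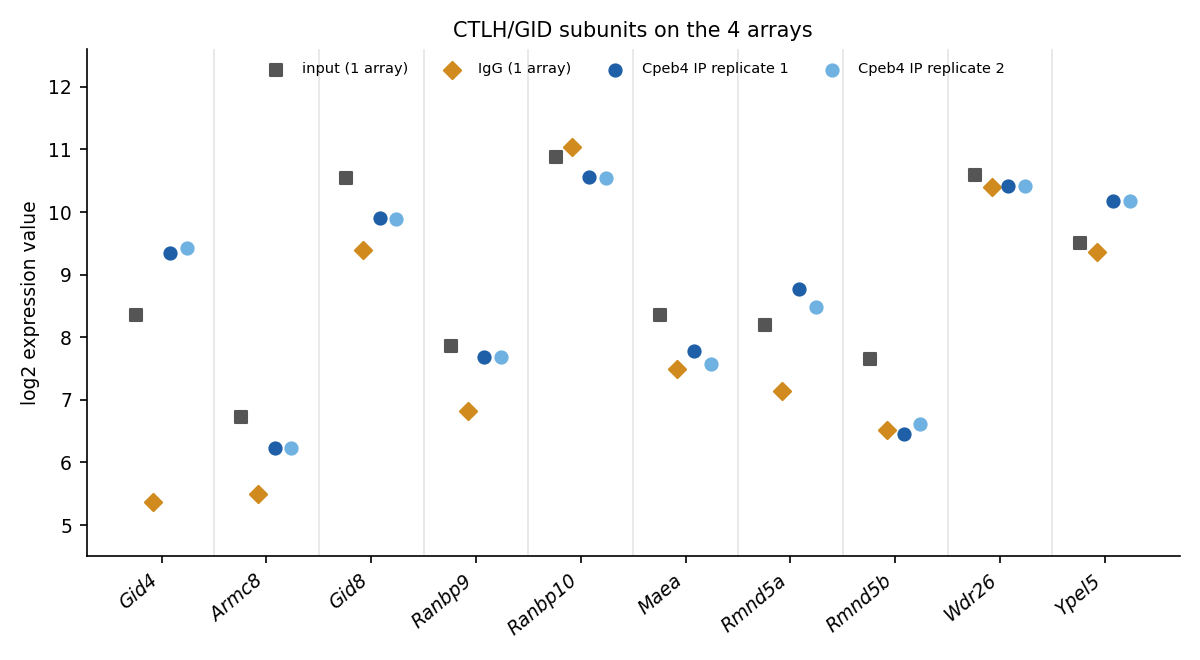
Log2 expression value (vertical axis) of each of the 10 CTLH/GID subunits on the input array (squares), the IgG array (diamonds) and the 2 Cpeb4 IP arrays (circles). The IgG value of Gid4, 5.36, lies far below its other 3 values, whereas Wdr26 lies between 10.41 and 10.59 on all 4 arrays.

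The scaffold subunits, which form the body of the ring, differed among themselves. Gid8 had 10.54 in input, 9.39 in IgG, and 9.91 and 9.89 in the IP replicates. It lay between the controls in both replicates, 0.51 above IgG and 0.65 below input, where its replicates differed by 0.01. Ranbp9 had 7.85 in input, 6.83 in IgG and 7.69 in both IP replicates, again tied. It was 1.82-fold over IgG and lay close under input, with a difference of -0.17.

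Ranbp10, the paralog of Ranbp9 and another scaffold subunit, was the only one of the 10 to lie below both controls in both IP replicates with the values as deposited. Its value was 10.88 in input, 11.04 in IgG, and 10.56 and 10.55 in the IP replicates. It was 1.40-fold lower in the IP than in IgG and 1.26-fold lower than in input, with a gap of 0.01 between replicates. Side by side, the paralogs differed by 1.34 on the log2 scale in IP minus IgG (0.86 for Ranbp9 and -0.48 for Ranbp10) but by only 0.16 in IP minus input. With the values as deposited the contrast lay on the single IgG array, where IgG minus input was -1.03 for Ranbp9 and 0.15 for Ranbp10. These became -0.15 and 0.31 after the arrays were quantile normalised again, where Ranbp9 was 0.13 over IgG. With the arrays scaled to one median and spread they were -0.89 and 1.01, and Ranbp9 was 0.74 over IgG.

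The RING subunits, which carry the catalytic step, also split. Rmnd5a had 8.19 in input, 7.14 in IgG, and 8.77 and 8.49 in the IP replicates. Both replicates lay above both controls, 2.81-fold over IgG and 1.35-fold over input on average, although the lower replicate was only 0.29 above input and the replicates differed by 0.28. Rmnd5a was, with Gid4, 1 of 2 subunits at least 2-fold over IgG in both replicates.

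Rmnd5b, the paralog of Rmnd5a, showed the largest deficit against input. Its value was 7.65 in input, 6.51 in IgG, and 6.45 and 6.61 in the IP replicates. The IP replicates lay on either side of IgG, and their mean differed from it by 0.02, less than the gap of 0.16 between them. Against input the differences were -1.20 and -1.04, so that Rmnd5b was 2.17-fold lower, just past the 2-fold size rule in both replicates. The RING paralogs thus differed by 1.47 in IP minus IgG and by 1.55 in IP minus input, and by 0.08 in IgG minus input.

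Maea, the RING partner of Rmnd5a, had 8.36 in input, 7.50 in IgG, and 7.77 and 7.57 in the IP replicates. Its mean was 0.17 above IgG, which is less than the gap of 0.21 between the replicates, and 1.61-fold below input, where neither replicate reached the input value. Of the RING pair, the IP was above input for Rmnd5a and below it for Maea.

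Wdr26 and Ypel5 form an accessory arm of the complex, with Wdr26 known to bring in substrates and to join rings into larger assemblies and Ypel5 known to bind there. With the values as deposited Wdr26 barely moved, with 10.59 in input, 10.41 in IgG and 10.42 in both tied IP replicates. Its IP values were 0.01 above IgG and 0.17 below input. The IP minus IgG difference of Wdr26 became -0.18 after quantile normalization again and -0.70 with the arrays scaled to one median and spread. Ypel5 had 9.51 in input, 9.36 in IgG, and 10.17 in each IP replicate, with a gap of under 0.01. Both IP arrays exceeded both controls, 1.75-fold over IgG and 1.58-fold over input, and after Gid4 it had the next largest excess over input of the 10. Its controls lay close together, with -0.15 for IgG minus input, so unlike Gid4 its difference from IgG did not go with a low IgG value.

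The ring has one further receptor-type subunit, Mkln1 (muskelin), and a partner E2 enzyme, Ube2h, which are not among the 10. Mkln1 had 8.81 in input, 6.40 in IgG and 7.53 in both IP replicates. It rose against IgG by 1.13 (limma adjusted p = 0.0063) and fell against input by 1.28 (limma adjusted p = 0.016), from tied replicates. Ube2h had 7.20 in input, 7.76 in IgG, and 7.62 and 7.18 in the IP replicates, which differed more from each other than their mean did from either control. Its differences of -0.36 from IgG and 0.20 from input did not pass (limma adjusted p = 0.502 and 0.725).

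Against IgG, 2 of the 10 subunits (Gid4 and Rmnd5a) were at least 2-fold higher in both IP replicates and none was at least 2-fold lower. Over all tested genes, 18.6% were at least 2-fold higher and 6.24% at least 2-fold lower, so the share of the subunits was near the background. By any amount, 8 of the 10 lay above IgG in both replicates, against 50.0% of tested genes, and 1 lay below, against 37.3%. Of those 8, Maea and Wdr26 turned below IgG on average after the arrays were quantile normalised again or scaled to one median and spread, and Gid8 did so under the second of these. The median IP minus IgG difference of the 10 was 0.62, where all tested genes had 0.08. It came to 0.12 under either scaling, where all tested genes had 0.03 after quantile normalization again and 0.23 with one median and spread, so under the second the median of the 10 lay below that of all genes.

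Against input, none of the 10 was at least 2-fold higher in both replicates and 1, Rmnd5b, was at least 2-fold lower. Over all tested genes, the shares were 4.04% and 5.18%. Gid4 lay just outside the rule, with 0.99 in replicate 1 and 1.06 in replicate 2. After quantile normalization again the counts turned about, with Gid4 (1.23 on average) at least 2-fold above input in both replicates, as were 4.28% of tested genes, and Rmnd5b (-0.91) no longer 2-fold below, as 3.4% were. By any amount, 3 subunits (Gid4, Rmnd5a and Ypel5) were above input in both replicates, against 33.1% of tested genes, and the other 7 were below, against 38.7%. On the average of the IP replicates, none of these 10 directions turned under either scaling, though Ranbp9 came to -0.02 after quantile normalization again. The median IP minus input difference of the 10 was -0.25, and that of all tested genes was -0.01. The summed megakaryocyte, neutrophil and hepatocyte markers also exceeded their input level in the IP, and their part in these differences was not tested.

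Set against both controls with the values as deposited, the 10 fell into 3 patterns and 1 exception. Gid4, Rmnd5a and Ypel5 were above both controls in both replicates, as were 20.5% of tested genes. Armc8, Gid8, Ranbp9, Maea and Wdr26 lay above IgG and below input, as did 22.2% of tested genes, and Ranbp10 lay below both, as did 11.9%. Rmnd5b was below input and on both sides of IgG. After quantile normalization again or with one median and spread, Maea, Rmnd5b and Wdr26 lay below both controls on average. Gid8 did so under the second of these. No subunit was at least 2-fold above both controls in both replicates, a rule that 2.49% of tested genes met, and none was at least 2-fold below both, where 0.503% were. The 2 comparisons share the IP arrays and so are not independent of each other.

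**Figure D2:**
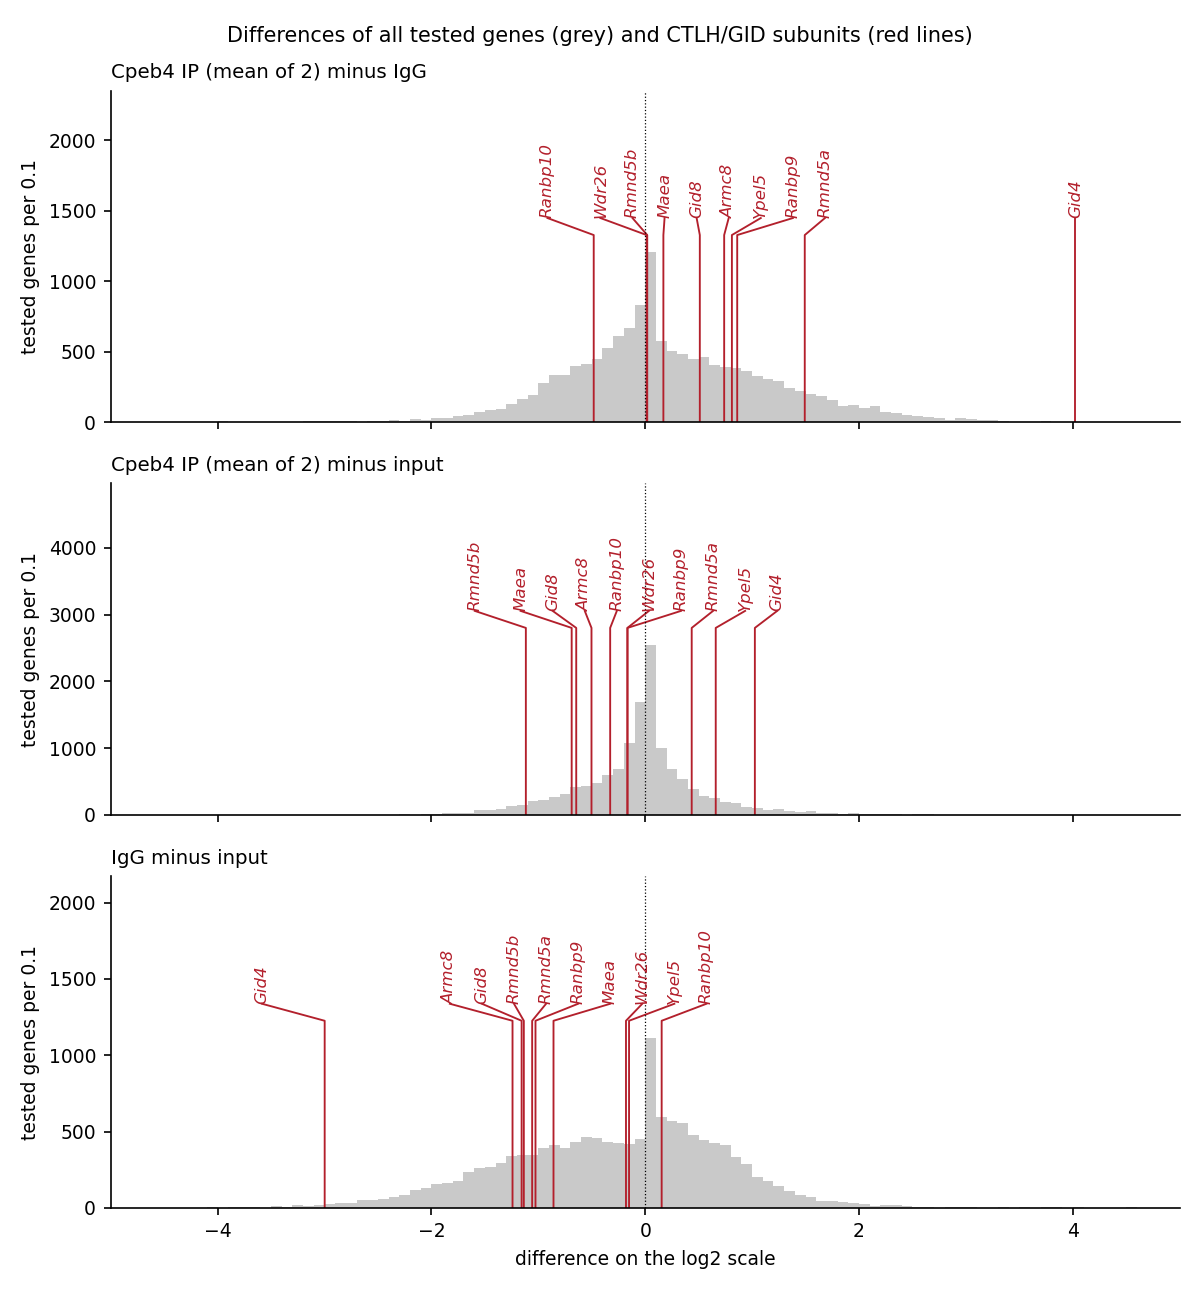
Histograms of the difference on the log2 scale (horizontal axis) for all 13911 tested genes, with the number of genes per bin of 0.1 on the vertical axis, for IP minus IgG, IP minus input and IgG minus input. Red lines mark the 10 subunits. Gid4 lies in the far right tail against IgG (4.02) and in the far left tail of IgG minus input (-3.00), and the other 9 lie between -0.48 and 1.49 against IgG. Rmnd5b is the lowest of the 10 against input (-1.12).

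Between the control arrays, 6 of the 10 subunits (Gid4, Armc8, Gid8, Ranbp9, Rmnd5a and Rmnd5b) were at least 2-fold lower in IgG than in input, against 23.9% of tested genes. None was at least 2-fold higher, against 7.93%. By any amount 9 of the 10 were lower in IgG, against 54.7% of tested genes, with Ranbp10 the exception. The IgG minus input difference had a median of -1.04 over the 10 and -0.15 over all tested genes. This comparison rests on 1 array a side and depended on scaling. After quantile normalization again 1 subunit, Gid4, was left at least 2-fold lower, against 13.9% of tested genes, the median of the 10 was -0.16 where all tested genes had -0.03, and Maea, Wdr26 and Ypel5 turned to the other side of 0. With one median and spread for all arrays, 3 were left, against 23.7% of tested genes, the median was -0.74 where all tested genes had -0.29, and Wdr26 and Ypel5 turned.

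The Gid4 differences kept their direction under each scaling. Its IP minus IgG difference was 4.02 as deposited, 3.82 after quantile normalization again and 4.04 with one median and spread. Its IP minus input difference was 1.03, 1.23 and 1.00, and its IgG minus input difference was -3.00, -2.59 and -3.04. For Rmnd5a the IP minus IgG difference was 1.49, 0.77 and 1.30, so it left the 2-fold range under the second of these, where of the 10 Gid4 alone exceeded IgG by 2-fold or more in each replicate, as did 12.8% of tested genes. Ypel5 went from 0.81 over IgG to 0.41 and 0.25, and stayed at 0.66, 0.81 and 0.66 over input. Ranbp10 went the other way, from -0.48 to -0.57 and -1.29 against IgG. The scalings also moved the median of all tested genes, by 0.15 in IP minus IgG with one median and spread. In IgG minus input that median moved by 0.12 after quantile normalization and by -0.15 with one median and spread.

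**Figure D3:**
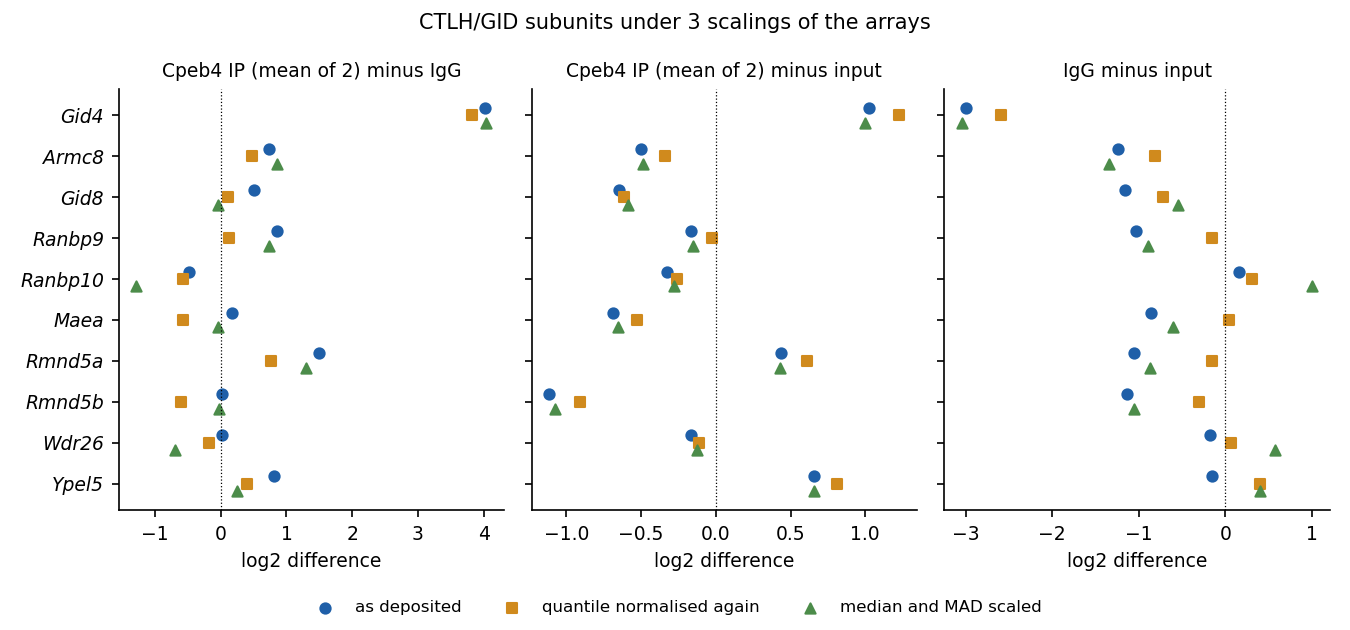
Log2 difference (horizontal axis) of each subunit in IP minus IgG, IP minus input and IgG minus input with the values as deposited (circles), after quantile normalization of the 4 arrays again (squares) and with all arrays set to the same median and median absolute deviation (MAD, triangles). Gid4 keeps 3.82 to 4.04 over IgG, while Gid8, Maea, Rmnd5b and Wdr26 lie on both sides of 0 there, and no subunit changes side in IP minus input.

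Related ubiquitin genes were set beside the 10 in 5 lists, chosen by function with earlier results of these arrays known. The shares of these lists are therefore a description, and cannot be read as a result independent of that choice. Of 58 genes listed, 55 were on the array and 52 were tested. The others were not analysed here. By size, in both IP replicates, 28 of the 52 exceeded IgG by 2-fold or more and 2 lay as far below it, where all tested genes had 18.6% and 6.24%. Against input 5 were above and 5 below, where all tested genes had 4.04% and 5.18%. These genes were also tested with limma, with p adjusted over all 13911 tested genes. Against IgG, 31 of the 52 rose, 3 fell and 18 did not pass, which is 59.6% up and 5.77% down where all tested genes had 29.2% up and 17.2% down. Their median difference was 1.13, where all tested genes had 0.08. Against input 6 rose (11.5%), 13 fell (25.0%) and 33 did not pass, where all tested genes had 9.39% up and 13.3% down, and their median was -0.22 where all tested genes had -0.01. After quantile normalization again the split against IgG was 26 up and 11 down, and the median was 0.50. The limma test treated tied replicates as having almost no spread: against IgG 80.1% of tied genes passed and 37.0% of the others. A call thus depended on the gap between the IP replicates as well as on size. Ddb1, 0.15 over IgG, passed from tied replicates, while Cul4b and Nedd8, both 1.32 over IgG, did not (limma adjusted p = 0.0953 and 0.0873).

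Of the partner, E2 and reported targets of the complex, 7 were tested, and 4 rose and none fell against IgG, with a median difference of 0.72. After quantile normalization again 3 rose and 1 fell, and the median was 0.06. Hmgcs1, an enzyme of sterol synthesis and reported CTLH target, rose by 1.70 (limma adjusted p = 0.0175), and Prkaa1, a catalytic subunit of the energy sensor AMPK, by 1.69 (limma adjusted p = 0.012). The others that rose were Mkln1 and Zmynd19, of which Zmynd19 (0.72) did not pass after quantile normalization again, with 0.06. Hbp1, a transcription repressor and reported target, differed from IgG by -0.06 and from input by -1.08. It passed against neither (limma adjusted p = 0.648 and 0.073), though it was at least 2-fold below input in both replicates. After quantile normalization again Hbp1 fell by 0.79 against IgG and by 0.93 against input. Against input Zmynd19 rose by 0.52 and Mkln1 fell, and the other 5 did not pass.

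The anaphase promoting complex, another RING ligase of many subunits, had 8 of 16 genes up and none down against IgG. Anapc13 rose by 3.59 and Anapc16 by 2.53, both small subunits, from IgG values of 4.51 and 5.12. The IgG array's median over all probe sets was 4.49, and with no detection calls it is not known whether such low values stood above background, so differences from them may be understated. Its activators Fzr1 (-0.53) and Cdc20 (-0.48) were lowest and did not pass, but they fell after quantile normalization again, where 7 of the 16 genes rose and 4 fell. Against input none rose and 3 fell, by 0.49 to 0.67. Cdc20 had the largest deficit of the list against input, -1.86, and Fzr1 had -0.90, but neither passed (limma adjusted p = 0.0892 and 0.112). Cdc20 was at least 2-fold below input in both replicates and fell against it after quantile normalization again. By the common-spread test described with the processing, 2 rose and 8 fell against input.

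The cullin-RING core, whose cullins carry exchangeable substrate receptors, had 10 of 14 genes up and none down against IgG. Eloc, an adaptor listed under its older name Tceb1, rose by 3.74 and Cul2, a scaffold, by 3.09, from IgG values of 5.42 and 4.01, of which the latter was below the median of that array. The lowest were Ddb1, an adaptor, at 0.15, and Rnf7, a RING subunit, at 0.48, which did not pass. Both turned below IgG after quantile normalization again, with -0.41 for Ddb1 and -0.26 for Rnf7, where 8 of the 14 genes rose and 1 fell. Against input 1 of the 14, Cul5, rose by 0.28, and 4 fell, all of them with tied IP replicates. Eloc had the larger difference from input, 1.59, or 3.0-fold, but did not pass (limma adjusted p = 0.0965), while it passed the common-spread test described with the processing. Likewise Elob, listed under its older name Tceb2, had the largest deficit against input, -1.26, and did not pass (limma adjusted p = 0.0706). It passed the common-spread test and fell against input after quantile normalization again.

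The list named for red cell maturation had 6 of 8 genes up and 1 down against IgG, and 4 up and 2 down after quantile normalization again. It includes E2 enzymes, and the part of its genes in maturation was not examined here. The E2 enzymes Ube2l3 and Ube2d3 rose by 2.99 and 2.95 and, unlike any of the 10 subunits in both replicates, were also at least 2-fold over input, with 1.08 and 2.14. Ube2o, an enzyme that strips the reticulocyte of ribosomes, fell by 0.32 against IgG, and Fbxo7 (0.01) did not pass, though it fell by 0.63 after quantile normalization again. Trim58, a ligase of late erythroblasts, rose by 1.13 against IgG and fell by 0.37 against input, the latter a call that was lost after quantile normalization again (-0.22).

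Relatives of the subunits by domain had 4 of 8 up and 2 down against IgG, and 4 up and 3 down after quantile normalization again. Tbl1xr1, a corepressor subunit with the LisH fold that several CTLH subunits have, rose by 2.11 and Smu1, a splicing factor with LisH and CTLH folds, by 1.48. Ypel3 and Ypel4, paralogs of Ypel5, fell by 1.48 and 1.42 against IgG (limma adjusted p = 0.0063 and 0.014). They also fell against input by 0.71 and 0.70 (limma adjusted p = 0.016 and 0.0437), and both fell against both controls after quantile normalization again as well. Ypel5, at 0.81 over IgG and 0.66 over input, thus lay on the other side of both controls from them, and Ypel2 (-0.11 and 0.17) passed against neither, though against IgG it fell by 0.43 after quantile normalization again.

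**Figure D4:**
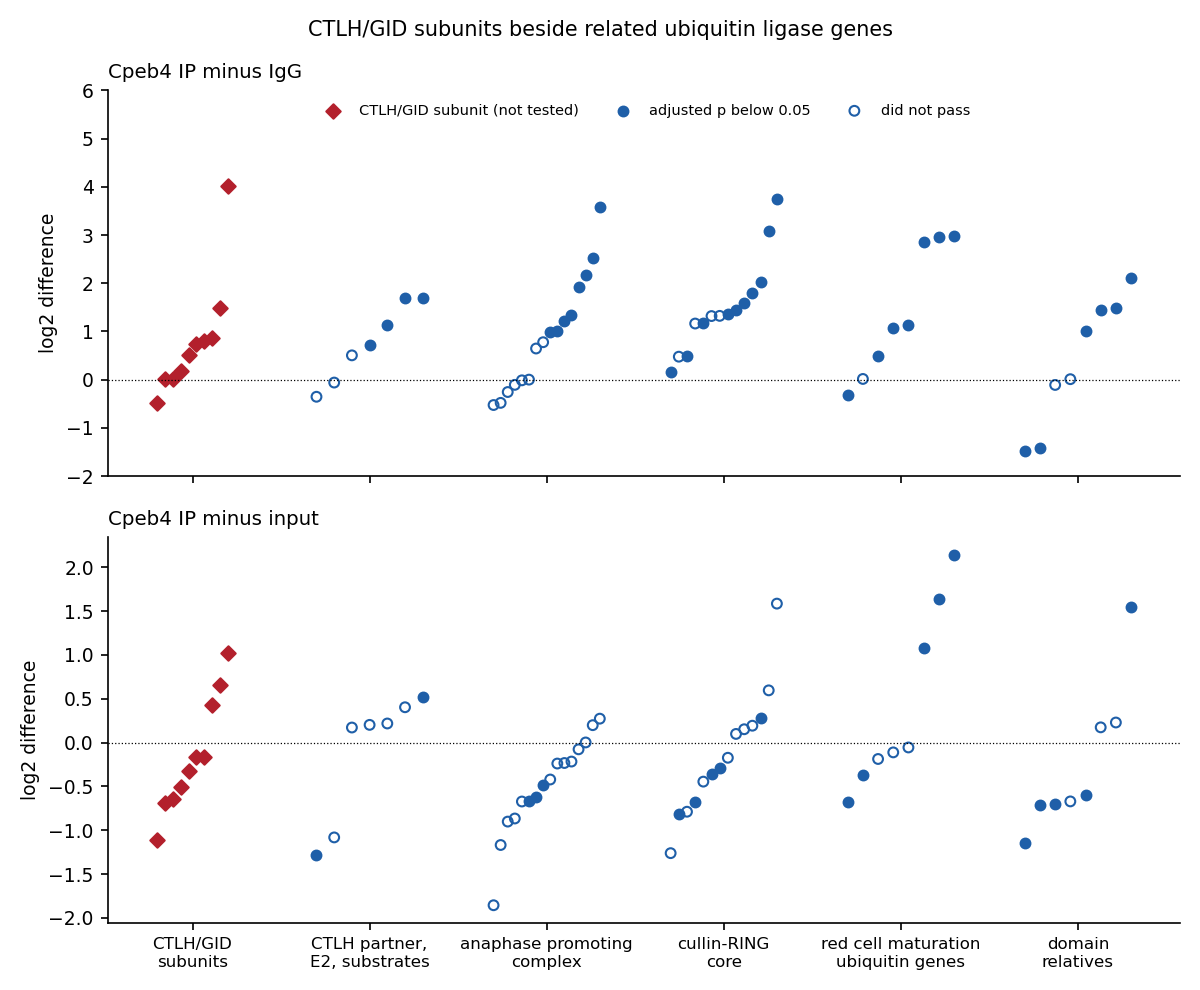
Log2 difference (vertical axis) in IP minus IgG and IP minus input for the 10 CTLH/GID subunits (diamonds, not tested) and the tested genes of 5 related lists (filled circles, limma adjusted p below 0.05; open circles, did not pass). Gid4, at 4.02, is above every listed gene against IgG in the values as measured, and Ube2d3, at 2.14, is highest against input.

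The genes whose values over the 4 arrays were most like those of Gid4 were Tmx4, Csnk2a1, Magt1, Cmpk1 and Hikeshi. Likeness was the Euclidean distance between values centred on each gene's own mean over 4 arrays, and it ranged from 0.19 for Tmx4 to 0.34 for Hikeshi. For comparison, Rmnd5a, the nearest of the other subunits to Gid4, lay at 2.09, and Ranbp10, the farthest, at 3.68. The median profile of the 10 was most like that of Fto, Klc1, Cdadc1, Mast2 and Vps37c, with distances of 0.09 each. With 4 points per gene this is a description only.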

How the data were processed

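RNA was measured on 4 arrays. For each probe set the authors deposited 1 log2 expression value per array. The tools named, per the submitters' processing notes, are RMA and affy, and versions, probe definition and build are not given in the sources used here. Probe set names are Entrez gene numbers, and symbols are those of GEO's array annotation, which can be old, updated by gene number through RefSeq; of 25206 probe sets 23185 had 1 symbol. RMA usually equalises probe distributions and summarises by median polish, which can give tied values.

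Genes were tested if their average log2 value was at or above the 40th percentile of genes with a symbol, 3.84, which kept 13911, and the 10 subunits were among them. Counts by size needed at least 2-fold in both IP replicates. Related genes were tested with limma 3.58.1 (R 4.3.3; lmFit, then eBayes) over 3 groups, which left 1 residual degree of freedom, with Benjamini-Hochberg adjustment and a threshold of 0.05. The spread came from the 2 IP arrays, and the IgG and input arrays were taken to vary as much as these do. The common-spread test used 1 IP spread per twentieth of expression (20 bins) and a normal distribution. Both tests were run on simulated data with the same spread for all genes and no ties. That check does not cover the tied genes of these arrays.

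The subunits, the lists and the tests were chosen with earlier results of these data known. Named genes were all 10 subunits, Mkln1 and Ube2h, the 2 highest and 2 lowest tested genes of each list by IP minus IgG, the 5 genes most like Gid4 and most like the median profile, and the 3 highest markers, printed for the erythroid list. Zmynd19, Cul4b, Nedd8, Cul5, Elob, Trim58, Ypel2, Klf1, Gata1, Epb42, Alb, Afp, Trf and Pecam1 were named after their values were seen. Differences were also computed after quantile normalization again, with one median and MAD for all arrays, at other thresholds and without each IP replicate. The number of arrays limits the precision. No 3′ UTR or protein sequence was used here.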

Additional observations from a re-analysis of the deposited data

How the results depend on the processing

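Each control was 1 array, so no setting could leave one out. Shares of all tested genes under the same setting are in brackets. Quantile normalization again left 1 subunit at least 2-fold above IgG in place of 2 (12.8%), gave 1 above input in place of 0 (4.28%) and 0 below input in place of 1 (3.4%), and left 1 in place of 6 lower in IgG than in input (13.9%). With one median and MAD for all arrays 1 subunit, Ranbp10, was at least 2-fold below IgG in place of 0 (5.15%), and 3 were lower in IgG than in input (23.7%). At 1.5-fold, 5 subunits were above IgG (30.0%), 2 above input (8.81%) and 2 below input (13.8%). At 4-fold, 1 was above IgG (4.13%), 0 were below input (0.302%) and 1 was lower in IgG than in input (5.38%). Without each IP replicate in turn, 0 to 1 subunits were above input (4.69% to 4.93%), which is Gid4 without replicate 1, and the counts above IgG (2, against 19.9% to 20.4%) and below input (1, against 6.12% to 6.87%) were unchanged. Of the related genes, quantile normalization again gave 11 below IgG in place of 3. The common-spread test gave 6 below IgG, 10 above input in place of 6 and 22 below input in place of 13. Above input, no filter gave 3 and eBayes with trend and robust 2. Below input, 5 were at least 2-fold lower in both replicates, and 6 by size when either replicate was left out. The count above IgG was 31 and ranged from 26 to 37 over all alternatives. The cause of these changes was not tested. None of the subunit differences past 2-fold in both replicates changed sign under the scalings or without a replicate. No paired analysis was possible because only the IP group had more than 1 replicate number.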

Other observations

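Among the 10 subunits, the pair with the most alike values over the 4 arrays was Armc8 and Gid8, at a distance of 0.20 on the log2 scale, followed by Armc8 and Ranbp9 at 0.28 and Gid8 and Maea at 0.32. With the values as deposited, these 4 genes all lay between IgG and input in the IP. Ranbp10 and Wdr26 lay 0.40 apart. The distances were computed from values centred on each gene's mean, with 4 points per gene, and are a description only.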
